A study of Mus musculus with 12 samples.

Results

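The members are the variable segments of the T cell receptor (TCR) beta and alpha chains: the 163 genes of the deposited feature list whose symbols start with Trbv (35 genes) or Trav (128 genes), out of 32285 genes. They were read in T cells, taken as cells with at least 2 UMIs (unique molecular identifiers, each standing for 1 captured RNA molecule) of Cd3e, Cd3d and Cd3g together and no UMI of Lyz2, a myeloid gene. Of 48194 cells assigned to a tumour, 2990 met this rule, in 39 tumours. T cells with a UMI of Cd8a or Cd8b1 and none of Cd4 are called CD8 T cells (832 cells), and those with a Cd4 UMI and none of Cd8a or Cd8b1 are called CD4 T cells (1032 cells). A further 26 cells had both and 1100 had neither. The rule used no Trbv or Trav value.

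The study followed mouse melanoma lines grown as tumours in mice, with single-cell RNA sequencing of sorted live cells with 10x Genomics 5' chemistry, each tumour tagged with its own hashtag antibody. Of the 5 lines in the authors' hashtag table, SCC31 and SCC40 have the outcome rejected and the others (SCC32, SCC35, SCC37) the outcome non-rejected. Tumours were sampled at days 6, 10 and 16 and, for the non-rejected lines, day 20. Each line had a library of its own with tumours numbered 1 and 2, and a mix library held tumours numbered 3 of SCC31, SCC35 and SCC40. Day 0 cells of every line gave 8 T cells among 7049 kept cells. The sources used here do not give the strain, sex or age of the mice, and no treatment is listed for any tumour.

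Libraries held 1871 to 14423 kept cells. T cells had a median of 1970.5 UMIs, and 33 tumours had at least 20 T cells, with at most 288 in a tumour. Only 5 T cell barcodes occurred in more than 1 library. The label SCC31 was in doubt for the mix library. In cells without UMIs of Ptprc, Xist, Cd3 genes or Lyz2, a sum of Y-linked genes (Uty, Kdm5d, Eif2s3y and Ddx3y) gave 105.7 CPM (counts scaled to the total counts of the same cells) in SCC31 cells of day 0 (458 UMIs), 19.4 CPM in SCC31 tumours of its own library (4 UMIs, 95% exact Poisson interval 5.29 to 49.7) and 4.53 CPM in the cells with SCC31 hashtags of the mix library (5 UMIs, interval 1.47 to 10.6). The interval of the own library also lay below the day 0 value and overlapped that of the mix library, so the fall was not seen in the mix library alone. Nearly all T cells of the label SCC31 came from the mix library, so they are called T cells of the tumours labelled SCC31, and results that rest on them are also given without them. Markers of other cell types were present among T cells. Over the 33 tumours, 0% to 22.4% of T cells had a UMI of a natural killer (NK) cell gene (median 11.9%), 0% to 18.2% of a gamma delta T cell gene (median 7.83%), 1.61% to 23.3% of a macrophage gene (median 10.2%), 5.45% to 34.5% of a dendritic cell gene (median 11.0%), 0% to 4.35% of a B cell gene and 0% to 5.71% of a melanocytic gene. The dendritic list was led by Ccr7, a chemokine receptor that T cells express too (13.8% of CD8 and 8.04% of CD4 T cells), with each of Flt3, Zbtb46, Xcr1 and Cd209a in at most 1.36% of either class. Genes of the regulatory T cell list (Foxp3, Il2ra, Ikzf2 and Ctla4) were found in 33.1% to 69.0% of T cells (median 55%). The B cell genes Cd79a and Ms4a1 were at 0 in CD8 and CD4 T cells.

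A TCR chain is made by joining 1 variable segment to a joining segment (with a diversity segment between them in the beta chain) and to a constant region, so each mature T cell reads out mainly 1 Trbv segment, with its neighbours silent. Trbv segments encode the variable part of the beta chain and Trav segments that of the alpha chain. The variable segment encodes the first and second of the loops that touch the antigen-presenting molecule, while the third loop spans the junction. CD8 T cells, killer cells for the most part, see peptides on MHC class I, and CD4 T cells, which include helper and regulatory cells, see peptides on MHC class II. Cells that descend from 1 activated T cell carry the same receptor, but cells with the same segments need not be related, and the junctions were not read here.

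In the GENCODE M21 annotation of GRCm38 (mm10), the build named in the submitters' processing notes, the Trbv segments lie between positions 40891229 and 41558452 of chromosome 6 and the Trav segments between 52427928 and 53977678 of chromosome 14. All 163 features matched it by identifier and symbol. The annotation lists 22 Trbv segments as functional and 13 as pseudogenes, and 108 and 20 for Trav. The Trbv13 family is shown first because its members are close in sequence and yet took opposite sides between the classes, Trbv13-3 in CD8 and Trbv13-2 in CD4 T cells. These are the V exons (294 bases each, plus strand, 5' to 3'), at chr6:41116175-41116468 (Trbv13-1), chr6:41121539-41121832 (Trbv13-2) and chr6:41130292-41130585 (Trbv13-3). Capitals mark the 49 positions at which the 3 exons are not all the same.
Trbv13-1: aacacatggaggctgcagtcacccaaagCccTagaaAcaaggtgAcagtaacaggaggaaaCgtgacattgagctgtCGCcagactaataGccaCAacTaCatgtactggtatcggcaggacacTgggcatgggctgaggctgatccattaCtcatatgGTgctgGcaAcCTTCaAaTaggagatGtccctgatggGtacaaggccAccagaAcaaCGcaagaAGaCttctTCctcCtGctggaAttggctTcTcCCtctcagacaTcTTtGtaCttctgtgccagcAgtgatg
Trbv13-2: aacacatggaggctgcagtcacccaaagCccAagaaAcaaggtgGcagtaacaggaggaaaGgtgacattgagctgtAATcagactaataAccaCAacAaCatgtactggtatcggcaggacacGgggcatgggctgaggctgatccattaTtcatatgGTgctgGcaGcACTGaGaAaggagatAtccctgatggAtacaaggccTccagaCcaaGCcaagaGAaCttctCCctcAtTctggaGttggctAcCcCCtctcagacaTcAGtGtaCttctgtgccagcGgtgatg
Trbv13-3: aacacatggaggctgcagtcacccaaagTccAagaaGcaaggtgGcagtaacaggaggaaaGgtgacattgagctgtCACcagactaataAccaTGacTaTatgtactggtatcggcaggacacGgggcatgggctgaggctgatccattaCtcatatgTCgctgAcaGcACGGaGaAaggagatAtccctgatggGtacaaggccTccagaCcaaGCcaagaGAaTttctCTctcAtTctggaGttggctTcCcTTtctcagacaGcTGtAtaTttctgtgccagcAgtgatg

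Trbv13-2 and Trbv13-3 had the same base at 91.8% of positions, Trbv13-1 and Trbv13-2 at 88.8%, and Trbv13-1 and Trbv13-3 at 86.1%. Every 90-base window of 32 of the 35 Trbv segments, these 3 included, was found in no other transcript gene, and 92.2% of Trbv UMIs lay in such segments. Trbv4 and Trbv5 were exceptions: 31.6% and 25.8% of their windows were unique, and the others were shared with the non-coding gene 5830405F06Rik (ENSMUSG00000103586), which is also in the feature list, so their counts may be too low.

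The Trav locus is different, since it holds near-identical copies of many segments. Only 23 of 128 Trav segments had all windows unique and they held 13% of Trav UMIs, while 39 had no unique window, and counts of single Trav segments are uncertain for that reason. Of the 38 functional Trav segments without a UMI in T cells, 34 had unique windows over less than 50% of their length. Trav6-7-dv9, the leading Trav segment, is shown with one of its copies. Its V exon (292 bases, plus strand) is at chr14:53710128-53710419, and that of Trav6d-7 is at chr14:53007807-53008098. Trav6n-7, at chr14:53318993-53319284, is identical to Trav6d-7. Capitals mark the 6 positions that differ.
Trav6-7-dv9: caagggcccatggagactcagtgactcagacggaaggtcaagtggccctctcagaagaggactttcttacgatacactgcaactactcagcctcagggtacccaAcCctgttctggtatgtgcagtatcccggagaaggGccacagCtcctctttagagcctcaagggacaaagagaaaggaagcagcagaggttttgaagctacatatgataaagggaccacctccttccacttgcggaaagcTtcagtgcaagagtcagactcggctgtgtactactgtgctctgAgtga
Trav6d-7: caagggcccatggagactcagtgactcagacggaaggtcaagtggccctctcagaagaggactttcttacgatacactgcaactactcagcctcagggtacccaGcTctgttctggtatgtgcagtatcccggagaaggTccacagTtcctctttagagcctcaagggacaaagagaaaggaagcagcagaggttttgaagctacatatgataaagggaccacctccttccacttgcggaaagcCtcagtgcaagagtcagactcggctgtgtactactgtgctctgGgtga

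Of the windows of Trav6-7-dv9, 69.3% were unique to it. A read from the other windows could not be told from its copies, and the sources used here do not say how such reads were counted.

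Segments were read in many T cells but not in all. A Trbv UMI was found in 49.5% of T cells and a Trav UMI in 28.7%. Per tumour with at least 20 T cells, the share ran from 9.09% to 79.8% for Trbv (median 47.8%) and from 0% to 54.6% for Trav (median 27.7%). Among 8478 cells with Lyz2 and no Cd3 UMI, which should lack both chains, 0.448% had a Trbv UMI and 0.495% a Trav UMI at a median of 2335 UMIs, so the shares in T cells were far above this background of free RNA. Trbv was found in 54.8% of CD8 and 58.1% of CD4 T cells and Trav in 23.0% and 38.6%. After thinning each cell to 1000 UMIs, which left out 107 CD8 and 74 CD4 cells, Trbv was found in 35.4% and 36.0% and Trav in 11.4% and 21.2%. Joining segments added little, with Trbj UMIs in 1.68% of CD8 and 1.26% of CD4 T cells.

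Most cells read out a single segment. Of T cells with a Trbv UMI, 91.3% had 1 segment and 128 had more than 1, and for Trav 86.9% had 1 segment and 112 had more. Each cell was given the segment with most UMIs, if there was a single such segment. That placed 1433 cells for Trbv (444 CD8, 583 CD4) and 801 for Trav (180 CD8, 366 CD4). In all, 21 Trbv and 73 Trav segments had a UMI in T cells, from 3497 Trbv and 1413 Trav UMIs, and 14 Trbv and 55 Trav segments had none.

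The most used Trbv segments were Trbv13-2 (191 cells), Trbv19 (181), Trbv26 (151) and Trbv13-1 (130), followed by Trbv3 (89), Trbv13-3 (80), Trbv5 (77) and Trbv16 (77). Trav6-7-dv9 was given to 237 cells, 29.6% of those with a Trav segment. The next were Trav13-1 (59 cells), Trav3-3 (36), Trav4-4-dv10 (35) and Trav9-1 (25), and Trav14n-3, Trav7-5 and Trav4-3 had 17 each. Among cells given a segment, 1 Trav segment thus held a larger share than any Trbv segment did, the highest of which was 13.3% for Trbv13-2. The loci were not read alike, since 39 Trav segments had no unique window. These shares therefore do not compare usage between the loci.

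CD4 and CD8 T cells of the same tumours used different segments. Trav6-7-dv9 was found in many more CD4 than CD8 T cells: 175 of 1032 CD4 T cells had a UMI of it (17%, exact binomial interval 14.7% to 19.4%) against 6 of 832 CD8 T cells (0.721%). In all, 270 T cells had a UMI of it, and those of neither class had both or neither of the Cd4 and Cd8 UMIs. Trbv26, Trbv13-2 and Trbv19 also leaned to CD4, with UMIs in 9.79%, 12.5% and 10.2% of CD4 against 1.68%, 4.09% and 3.97% of CD8 T cells. Trbv13-3 leaned to CD8, with a UMI in 69 CD8 T cells (8.29%) and 2 CD4 T cells (0.194%). Trbv17 was found in 24 CD8 T cells (2.88%) and in 0 of 1032 CD4 T cells, which at 3 counts allows up to 0.291% of cells with a UMI. That is no limit on the cells that carry Trbv17, since 58.1% of CD4 T cells gave any Trbv UMI. These intervals and limits cover counting error only, and cells of 1 tumour share their source.

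The comparison over tumours used UMI sums of the 17 tumours of 4 lines with at least 10 T cells of each class, with the tumour as a block (edgeR quasi-likelihood test, Benjamini-Hochberg adjustment over all genes tested). With edgeR's filter on low counts, 1498 genes were tested and none was a Trbv or Trav segment, so the values here come from the fit without that filter, which tested 15290 genes with at least 1 UMI. It called 383 genes, 2.5% of those tested. Of the 163 segments 83 were tested (21 Trbv, 62 Trav), since the others had no UMI in these sums. Of these, 12 were called and 25 had an unadjusted p under 0.05. The called ones were 5 higher in CD8 T cells (Trbv13-3, Trbv17, Trbv12-2, Trbv16 and Trbv29), beside 0.608% of all genes called in that direction, and 7 higher in CD4 T cells (Trav6-7-dv9, Trbv4, Trbv26, Trav13-1, Trbv5, Trbv13-2 and Trbv19), beside 1.9% of all genes. A sum does not tell more cells with a segment from more RNA per cell.

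**Figure D1:**
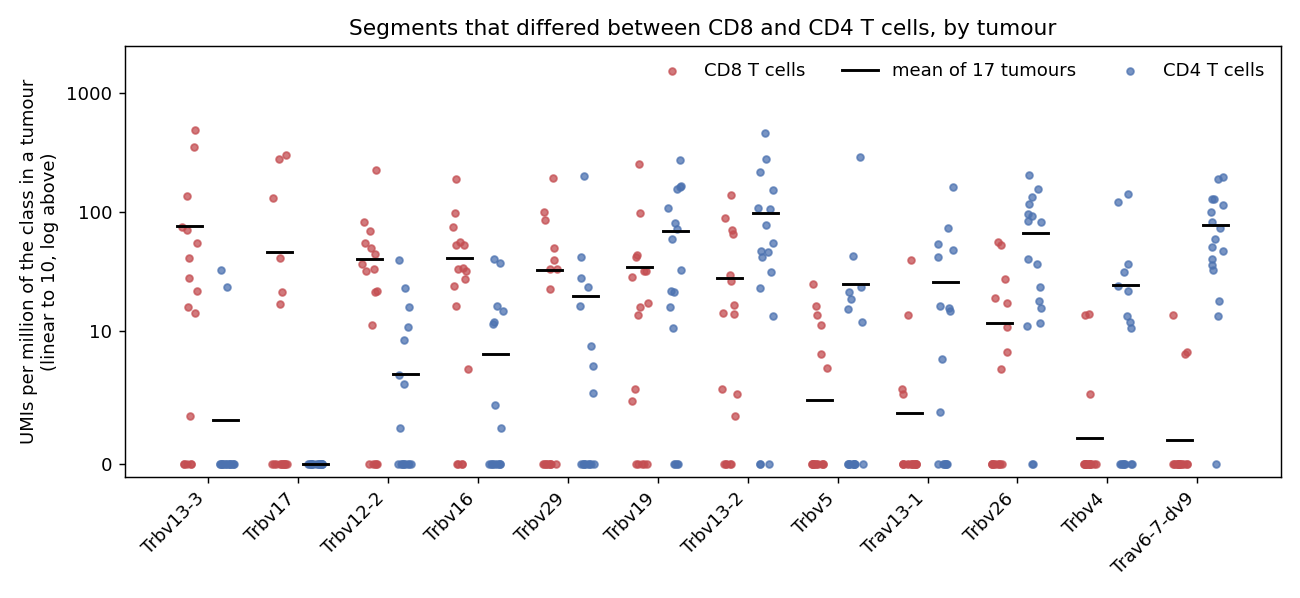
CPM of 12 Trbv and Trav segments (y axis, linear to 10 and logarithmic above) in CD8 (red) and CD4 (blue) T cells; points are the 17 tumours, bars their means. Trbv13-3 and Trbv17 have CD4 points mostly or wholly at 0, and Trav6-7-dv9 has CD8 points at 0 in all but 3 tumours.

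Trav6-7-dv9 gave 3 UMIs in CD8 and 228 in CD4 T cells. In CD4 T cells it ran from 0 to 198 CPM over the 17 tumours (median 60.1) and was found in 16 of them, and in CD8 T cells it was found in 3, at no more than 13.8 CPM. It was higher in CD4 T cells in 16 tumours and in CD8 T cells in 0. The means were 1.79 ± 4.14 CPM in CD8 and 77.7 ± 58.8 CPM in CD4 T cells (SD, n = 17), and the log2 fold change of CD8 over CD4 was -4.80 (SE 0.45, edgeR adjusted p 1.08e-23). The highest value was that of SCC40 day 10 tumour 1, which held 51 of the 228 UMIs.

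Trbv26 followed the same side, with 20 UMIs in CD8 and 193 in CD4 T cells. Its CD4 values ran from 0 to 204 CPM (median 40.8) and its CD8 values from 0 to 56.4 (median 0), so the classes overlapped, and it was higher in CD4 T cells in 13 tumours and lower in 2 (log2 fold change -2.56, SE 0.34, edgeR adjusted p 9.68e-12). Trbv13-2 ran from 0 to 461 CPM in CD4 (median 47.5) and from 0 to 139 CPM in CD8 T cells (median 14.1) and was higher in CD4 T cells in 13 tumours and lower in 3 (-1.91, SE 0.29, adjusted p 9.40e-09). Its highest CD4 values were in SCC40 day 10 tumour 2 (461 CPM) and tumour 1 (283 CPM). Trbv4 (3 UMIs against 60; -3.38, SE 0.61, adjusted p 3.49e-06) and Trav13-1 (6 against 56; -2.27, SE 0.55, adjusted p 0.00223) were found in 9 and 10 tumours in CD4 T cells. Trav13-1 rested on SCC32, which held 46 of its CD4 UMIs against 2 in CD8 T cells, while SCC40 had 4 UMIs in CD8 and 2 in CD4 T cells. Without the SCC32 library its log2 fold change was -0.47 (adjusted p 0.961). Trbv4 had 27 of its CD4 UMIs in SCC40 day 16 tumour 2 and was not called without the SCC40 library (-2.40, adjusted p 0.0811).

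Trbv13-3 ran from 0 to 493.4 CPM in CD8 T cells (median 22.02) and gave 145 UMIs in 12 tumours, against 3 UMIs in 2 tumours in CD4 T cells. It was higher in CD8 T cells in 11 tumours and lower in 1, the tumour labelled SCC31 day 6 tumour 3 (log2 fold change 5.38, SE 0.49, edgeR adjusted p 4.99e-25). SCC40 day 16 tumour 1 (493.4 CPM) and day 10 tumour 1 (355 CPM) were highest. Trbv16 (81 UMIs in CD8 against 23 in CD4; 2.04, SE 0.37, adjusted p 5.32e-06) and Trbv12-2 (67 against 24; 2.07, SE 0.38, adjusted p 7.31e-06) were higher in CD8 T cells in 11 and 12 tumours. Both were found in CD4 T cells of 8 tumours as well, so these segments were used by both classes.

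Trbv17 gave 102 UMIs in CD8 and 0 in CD4 T cells (log2 fold change 4.42, SE 0.62, edgeR adjusted p 1.86e-10). Pooled over tumours, it was at least 48.7-fold higher against a floor of 3 counts over all CD4 sums. That ignores the pairing by tumour and is no bound within a tumour. SCC32 day 20 tumour 2 and day 16 tumours 1 and 2, with most of the Trbv17 UMIs, had 13, 13 and 45 CD4 T cells. Only 6 tumours had any Trbv17 UMI in CD8 T cells. They were SCC32 day 20 tumour 2 (57 UMIs), SCC32 day 16 tumours 1 (20) and 2 (16), SCC32 day 10 tumour 2 (3), SCC32 day 20 tumour 1 (3) and SCC40 day 10 tumour 3 (3). Trbv17 in CD8 T cells was thus read mainly in 1 line, and without the SCC32 library the difference was not called (adjusted p 0.957).

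The calls of Trbv5, Trbv19 and Trbv29 were also lost when single tumours were left out. Trbv5 (10 UMIs in CD8 against 123 in CD4; -1.94, SE 0.50, edgeR adjusted p 0.00563) rested on SCC40 day 16 tumour 1, with 97 of the CD4 UMIs. Without this tumour its log2 fold change was -0.55 (adjusted p 0.938), without SCC40 day 16 tumour 2 the adjusted p was 0.0821, and without the SCC40 library the change was 0.44. Trbv19 (62 against 209; -1.04, SE 0.28, adjusted p 0.0120) lost its call without any of 5 tumours, SCC32 day 6 tumour 1, day 10 tumours 1 and 2, day 20 tumour 1 and SCC40 day 16 tumour 1 (adjusted p 0.0527 to 0.268), and without the SCC32 library its change was -0.25 (adjusted p 0.957). Trbv29 (69 against 23; 1.37, SE 0.39, adjusted p 0.0220) lost its call without any of 6 (adjusted p 0.0526 to 0.829), SCC32 day 10 tumour 1, day 20 tumours 1 and 2, SCC40 day 10 tumours 2 and 3 and day 16 tumour 2, and also without the library of SCC32 (adjusted p 0.821) or SCC40 (0.145). Leaving out each of the 17 tumours gave 10 to 14 called segments.

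DESeq2, another count model, called 5 of the 12 (Trav6-7-dv9, Trbv26, Trbv13-2, Trbv12-2 and Trbv16). It gave Trbv13-3 an adjusted p of 0.361, Trbv17 0.821, Trbv19 0.385 and Trbv29 0.742, and no adjusted p for Trbv4, Trbv5 and Trav13-1. Without the tumours labelled SCC31, and also without the mix library, 13 segments were called.

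Other genes of the receptor and of T cell states gave the setting for these differences, in the fit with the filter on low counts (280 of 1498 genes called, 18.7%, with 8.48% of genes higher and 10.2% lower in CD8 T cells). Of 7 receptor genes tested from a list of 14, Cd247, the CD3 zeta chain that carries the signal, was lower in CD8 T cells (log2 fold change -1.18, edgeR adjusted p 7.24e-06) and none was higher. The fit without the filter tested 11 receptor genes and called 1 higher and 1 lower in CD8 T cells. The constant regions Trac (-0.35, adjusted p 0.157), Trbc1 (0.33, 0.256) and Trbc2 (0.06, 0.748) were not called. Of 8 cytotoxic and effector genes, 4 were higher in CD8 T cells (the granzymes Gzma 3.89 and Gzmb 2.12, the chemokine Ccl5 2.55 and Nkg7 0.91) and 2 were lower (Ifng -2.22 and Cxcr6 -1.12). Of 9 exhaustion and activation genes, 7 were lower in CD8 T cells, among them the inhibitory receptors Ctla4 (-1.66), Lag3 (-1.08) and Tigit (-0.99) and the costimulatory receptor Icos (-1.62). Of 3 memory genes 1 was higher (Xcl1 2.11), and of 4 cycling genes 2 were (Mki67 0.67 and Stmn1 0.60), though neither was called in the fit without the filter (adjusted p 0.0582 and 0.0915). None of the 5 genes of the innate-like list passed the filter. The medians of these lists were -0.11 (receptor), 0.75 (cytotoxic), -0.77 (exhaustion), 0.45 (memory) and 0.55 (cycling), beside 0.01 over all genes. A UMI of any of the 5 NK genes was found in 22.4% of CD8 (186 of 832) and 1.74% of CD4 T cells (18 of 1032), led by Klre1 (14.7% and 0.678%) and Eomes (9.38% and 0.291%), while Ncr1 was found in 0% and 0.388%. A UMI of any of the 4 gamma delta genes was found in 9.50% and 0.291%, led by Tcrg-C2, a gamma chain constant region (7.57% of CD8 and 0 of 1032 CD4 T cells). These are shares of pooled cells with no test over tumours, and their part in the differences was not tested.

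The difference between the classes was set against the line in SCC32 and SCC40 (7 tumours each). Of 14901 genes 7 were called for the difference of the difference, and of 82 segments 1, Trbv20, with 11 at an unadjusted p under 0.05. Trbv20 gave 1 UMI in CD8 and 27 in CD4 T cells of SCC32, and 5 and 0 in SCC40 (interaction -7.16 on the log2 scale, edgeR adjusted p 0.0418). Its counts were low, and 7 of its cells were CD4 T cells of SCC32 day 16 tumour 2. The other segments were not called, which does not show that they acted alike in both lines.

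The spread of Trbv segments within CD8 and within CD4 T cells was described as well. The effective number of segments (1 over the chance that 2 cells of a class share a Trbv segment) was 2.43 to 19.1 in CD8 T cells of 14 tumours with at least 15 such cells (median 9.52) and 3.35 to 10.5 in CD4 T cells of 11 tumours (median 5.53). In 8 tumours with both classes it was higher in CD8 in 6 and lower in 2, SCC40 day 16 tumours 1 and 2. The leading segment took 14.3% to 64.5% of CD8 T cells (median 25%) and 17.5% to 51.5% of CD4 T cells (median 36.7%). These are given as a description, with no test. The 14 CD8 tumours included some of SCC35 and SCC37 and the 11 CD4 tumours did not, so the medians are over unlike sets.

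**Figure D2:**
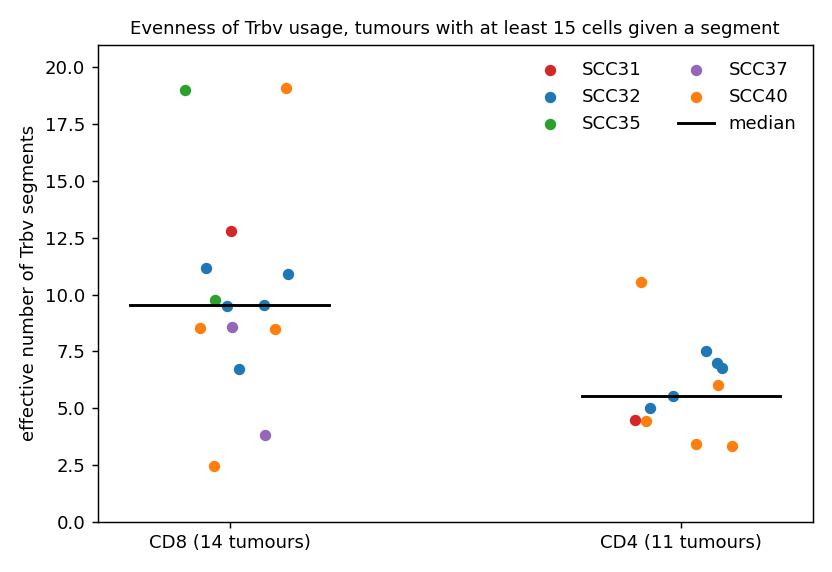
Effective number of Trbv segments (y axis) in CD8 T cells of 14 tumours and CD4 T cells of 11 tumours; each point is 1 tumour, coloured by line, and bars are medians. The CD8 points spread from 2.43 to 19.1 and the CD4 points from 3.35 to 10.5.

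The lowest effective number was that of CD8 T cells in SCC40 day 16 tumour 1, where Trbv13-3 took 20 of 31 cells (64.5%). Trbv13-3 also led in SCC37 day 20 tumour 2 (9 of 18 CD8 T cells) and SCC35 day 16 tumour 1 (6 of 27). Trbv13-1 led the CD8 T cells of SCC32 day 20 tumour 2 (16 of 60), SCC32 day 20 tumour 1 (5 of 20) and SCC40 day 16 tumour 2 (11 of 39). Trbv17 led in SCC32 day 16 tumour 1 (4 of 16), Trbv19 in SCC32 day 16 tumour 2 (5 of 20), Trbv29 in SCC32 day 10 tumour 1 (4 of 15) and Trbv12-1 in SCC40 day 10 tumour 2 (5 of 17). In the other 4 tumours a pair of segments shared the lead: Trbv29 and Trbv3 in SCC40 day 10 tumour 3 (3 of 21 each), Trbv12-2 and Trbv3 in SCC37 day 20 tumour 1 (4 of 16 each), Trbv1 and Trbv2 in SCC35 day 20 tumour 3 (3 of 19 each), and Trbv16 and Trbv19 in the tumour labelled SCC31 day 10 tumour 3 (5 of 30 each). The leading CD8 segment therefore changed from tumour to tumour, and in several tumours rested on few cells.

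In CD4 T cells, Trbv19 led alone in 4 of the 11 tumours: SCC32 day 6 tumour 1 (6 of 15), SCC32 day 10 tumours 1 (23 of 85) and 2 (18 of 49) and the tumour labelled SCC31 day 10 tumour 3 (20 of 44). Trbv13-2 led in SCC40 day 10 tumours 1 (27 of 65) and 2 (19 of 37), and shared the lead with Trbv19 in SCC32 day 20 tumour 1 (4 of 15 each). Trbv26 led in SCC40 day 10 tumour 3 (12 of 38) and shared the lead with Trbv4 in SCC40 day 16 tumour 2 (7 of 40 each), Trbv20 led in SCC32 day 16 tumour 2 (7 of 21) and Trbv5 in SCC40 day 16 tumour 1 (34 of 66, 51.5%). Trbv26 was the only Trbv segment found in the CD4 T cells of all 11 tumours, at 3.03% to 31.6% of cells.

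**Figure D3:**
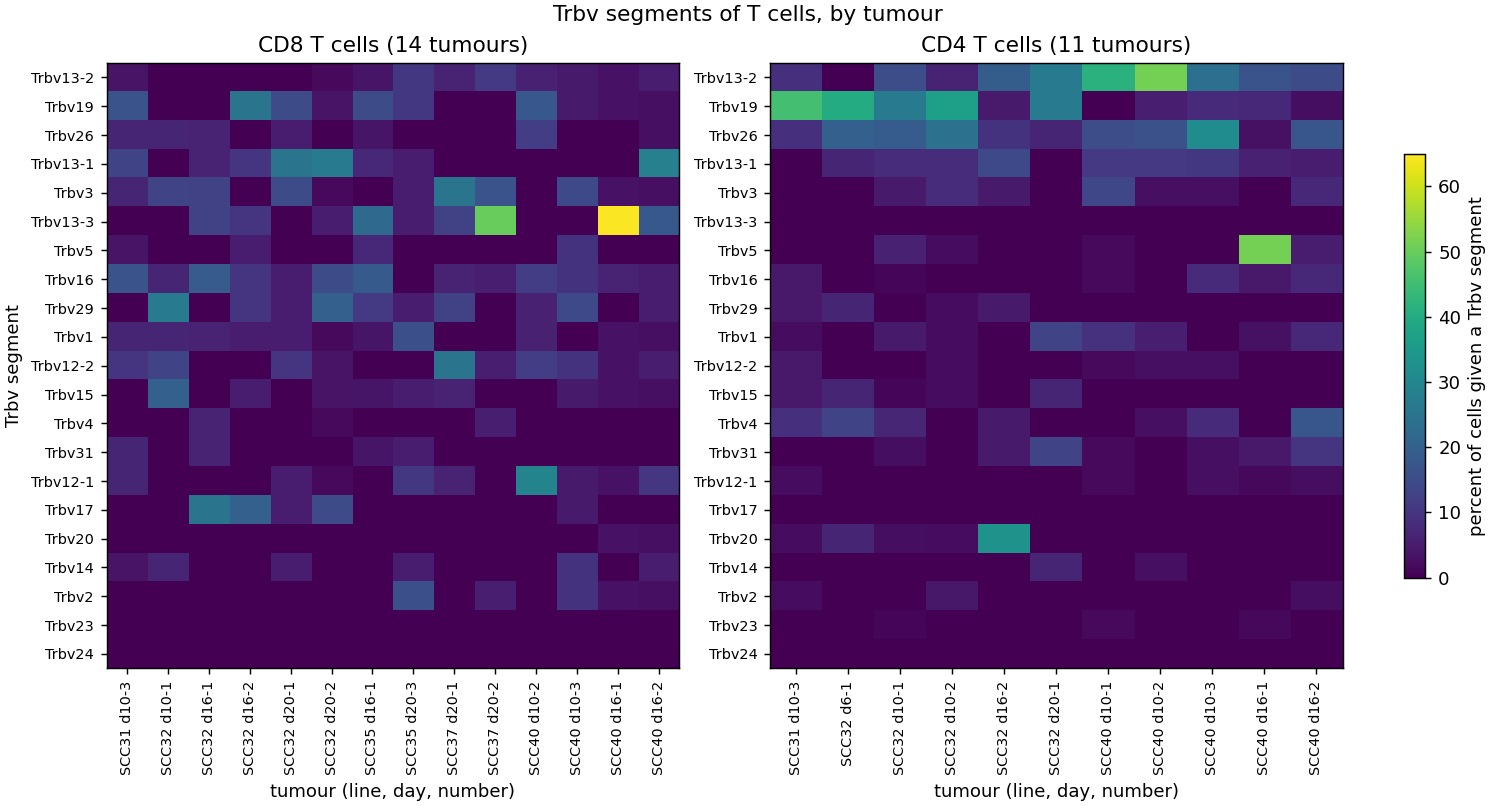
Percent of cells given a Trbv segment (colour) for each segment with a UMI (rows) in each tumour with at least 15 such cells (columns; line, day and tumour number), for CD8 and CD4 T cells. The CD8 panel holds single bright cells, such as Trbv13-3 at 64.5% in SCC40 day 16 tumour 1, while in the CD4 panel Trbv26 has cells in all 11 tumours and Trbv13-2 in 10, and Trbv19 is at 26.7% to 45.5% in 5 tumours and at 0% to 7.89% in the other 6.

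Over all T cells of a tumour, the UMI counts of segments differed between the 5 lines. The fit took 33 tumours with at least 20 T cells, with day as a factor (edgeR F-test over the lines). It tested 15 segments (14 Trbv and Trav6-7-dv9) among 5815 genes and called 7, beside 21.3% of all genes. They were Trbv17 (adjusted p 0.000210), Trbv26 (0.000571), Trbv13-2 (0.00115), Trbv13-1 (0.00211), Trbv20 (0.00227), Trav6-7-dv9 (0.00647) and Trbv19 (0.0367). Line and library cannot be told apart outside the mix library. The mix library held 2 tumours each of SCC31, SCC35 and SCC40 in this fit, too few for a test of their own. The share of T cells with any Trbv UMI also differed. It was 9.09% to 37.1% in the SCC37 tumours of this fit and 48% to 79.8% in SCC40 tumours of the SCC40 library. In the SCC40 tumours of the mix library it was 29.7% and 35.8%. CPM is not scaled to this share, so a lower CPM need not be a lower share of Trbv UMIs.

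**Figure D4:**
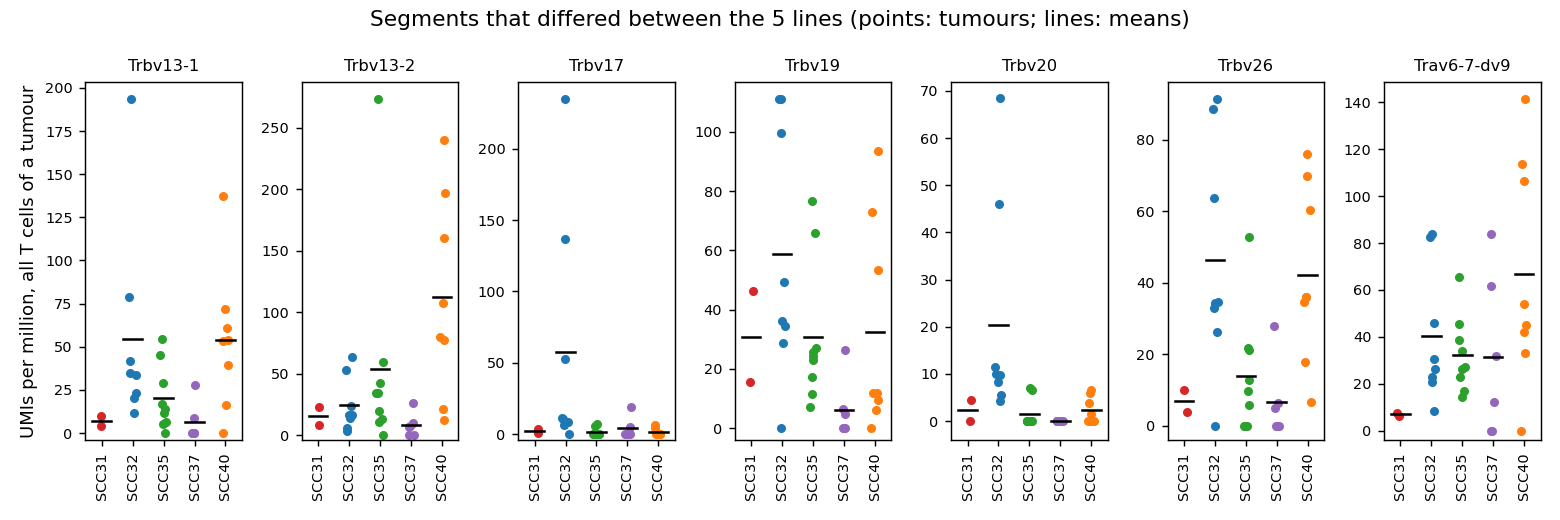
CPM in all T cells of a tumour (y axis, a scale for each panel) for 7 segments by line; points are tumours with at least 20 T cells and bars are means. Trbv17 and Trbv20 are raised in some SCC32 tumours, and Trbv13-2 in most SCC40 tumours.

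Trbv17 and Trbv20 were highest in SCC32. Trbv17 was at 0, 6.59, 8.29, 10.9, 11.52, 52.6, 137 and 235 CPM in the 8 SCC32 tumours, the 3 highest being those of day 16 and day 20 tumour 2. It averaged 57.7 ± 84.8 CPM there (SD, n = 8), and 1.39 to 4.02 CPM in the other lines. Trbv20 averaged 20.5 ± 23.6 CPM in SCC32 and 0 to 2.28 CPM elsewhere, with 0 UMIs in all 6 SCC37 tumours.

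Trbv13-2 was highest in SCC40, at 11.9 to 240 CPM (median 93.9; mean 112 ± 81.5, n = 8), against 24.5 ± 22.03 in SCC32 (n = 8) and 8.25 ± 9.73 in SCC37 (n = 6). SCC35 averaged 54.1 ± 84.2 (n = 9), or 26.7 without day 6 tumour 2, which alone reached 273 CPM from 16 UMIs. Within the mix library the order was not seen: Trbv13-2 averaged 16.4 CPM in SCC40, 23.7 in SCC35 and 15.6 in SCC31 (n = 2 each). Without the SCC40 library it was not called (edgeR adjusted p 0.173).

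Trbv26 was higher in SCC32 (46.5 ± 31.9 CPM, n = 8) and SCC40 (42.1 ± 24.5, n = 8) than in SCC35 (13.8 ± 16.9, n = 9), SCC37 (6.53 ± 10.9, n = 6) and the tumours labelled SCC31 (6.93 ± 4.36, n = 2). Within the mix library its means were 26.9 CPM in SCC40, 9.30 in SCC35 and 6.93 in SCC31. Trbv13-1 followed the same order, with 54.7 ± 59.6 in SCC32, 54.1 ± 41.2 in SCC40, 20.4 ± 18.8 in SCC35, 6.93 in SCC31 and 6.13 in SCC37, but in the mix library the 3 lines averaged 5.74 to 8.25 CPM. The SCC32 and SCC40 means of both segments lay within each other's SD. Trav6-7-dv9 averaged 66.9 ± 48.1 CPM in SCC40, 40.1 ± 28.6 in SCC32, 32.4 ± 15.98 in SCC35, 31.6 ± 34.7 in SCC37 and 7.04 ± 0.935 in the tumours labelled SCC31. Its call rested on the last: without SCC31 the edgeR adjusted p was 0.248. A Trav UMI was found in only 17.2% and 11.8% of T cells of these tumours labelled SCC31. Among their CD4 T cells with a Trav segment, Trav6-7-dv9 took 28.6% (6 of 21). It took 34.4% in SCC32 (52 of 151), 45.5% in SCC40 (71 of 156), 47.6% in SCC35 (10 of 21) and 64.7% in SCC37 (11 of 17). Trbv19 averaged 58.8 ± 42.6 CPM in SCC32, 30.9 to 32.4 CPM in SCC31, SCC35 and SCC40, and 6.27 in SCC37, and was not called without the library of SCC32 (adjusted p 0.313), SCC35 (0.0742) or SCC37 (0.286).

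Shares of CD8 and CD4 T cells differed between lines as well, so the lines were compared within each class. In CD8 T cells (24 tumours, 2565 genes tested, 1.72% called) 9 segments were tested and Trbv17 was called (edgeR adjusted p 0.0271). In CD4 T cells (21 tumours, 3297 genes, 9.1% called) 12 were tested and 4 called: Trbv13-2 (adjusted p 0.00113), Trav13-1 (0.00434), Trbv13-1 (0.0211) and Trbv20 (0.0241). Trbv13-2 took 29.2% of CD4 T cells with a Trbv segment in SCC40 (77 of 264), 22.7% in SCC35 (10 of 44) and 11.9% in SCC32 (25 of 210). Trbv19 took 44.9% in the tumours labelled SCC31 (22 of 49), 25.7% in SCC32 (54 of 210) and 5.30% in SCC40 (14 of 264), but was not called in CD4 T cells (adjusted p 0.467). Trbv26 was not called in CD4 T cells either (edgeR adjusted p 0.0855), and its shares did not follow its CPM over all T cells. It took 31.25% in SCC37 (5 of 16), 22.7% in SCC35 (10 of 44) and 17.6% in SCC32 (37 of 210). In SCC40 it took 15.2% (40 of 264) and in the tumours labelled SCC31 8.16% (4 of 49).

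Over time, no segment was called. The last day was compared with day 6 as a mean over SCC31, SCC32, SCC35 and SCC40. It was day 20 for SCC32 and SCC35, day 16 for SCC40 and day 10 for SCC31, whose day 16 tumours were not in the fit. There were 8 tumours against 7, since no SCC37 tumour of day 6 had 20 T cells and SCC31 had 1 tumour on each side. The SCC31 tumours were assumed to vary like the others. edgeR called 33 of 5815 genes (0.567%, with 0.447% higher and 0.12% lower on the last day) and 0 of 15 segments, with 1 at an unadjusted p under 0.05, and DESeq2 also called 0. That segment was Trbv1, at 30.9 ± 23.1 CPM on the last day and 5.52 ± 10.9 at day 6 (log2 fold change 4.36, SE 1.58, adjusted p 0.242). Trav6-7-dv9 was at 28.3 ± 20.1 and 34.5 ± 38.8 CPM (0.02, SE 0.83) and was not called. The lack of a call does not show that usage stayed the same.

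The share of Trav6-7-dv9 in CD4 T cells with a Trav segment varied by day and tumour. It was 41.4% at day 6 (12 of 29 cells), 52.9% at day 10 (111 of 210, exact binomial interval 45.9% to 59.8%), 19.2% at day 16 (19 of 99, 12% to 28.3%) and 28.6% at day 20 (8 of 28). Without the tumours labelled SCC31 the day 10 share was 55.4% (107 of 193). The intervals of days 10 and 16 did not overlap, but they pool cells of several tumours and leave out the spread between tumours. Of the 99 CD4 T cells with a Trav segment at day 16, 41 came from SCC40 day 16 tumour 1, 3 of them with Trav6-7-dv9. This pair of days was not tested. Among tumours with at least 5 such cells, those of day 10 ran from 23.5% to 100% and those of day 16 from 7.32% to 35.3%. The overlap came from the tumour labelled SCC31 day 10 tumour 3 (23.5%), and without it the lowest value of day 10 was 40.6%. In SCC40 the 3 tumours of day 10 had 60.9% (28 of 46), 94.4% (17 of 18) and 70.6% (12 of 17), and the 2 of day 16 had 7.32% (3 of 41) and 28% (7 of 25), with no overlap. Of these 5 tumours, that of 60.9% came from a mouse of cage 2 and the other 4 from mice of cage 5. In SCC32 the tumours of day 10 had 41.7% (25 of 60) and 40.6% (13 of 32), those of day 16 11.1% (1 of 9) and 35.3% (6 of 17), and those of day 20 15.4% (2 of 13) and 0% (0 of 5). Of 16 tumours with at least 5 such cells, 15 had the segment, at a median of 38.5%.

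**Figure D5:**
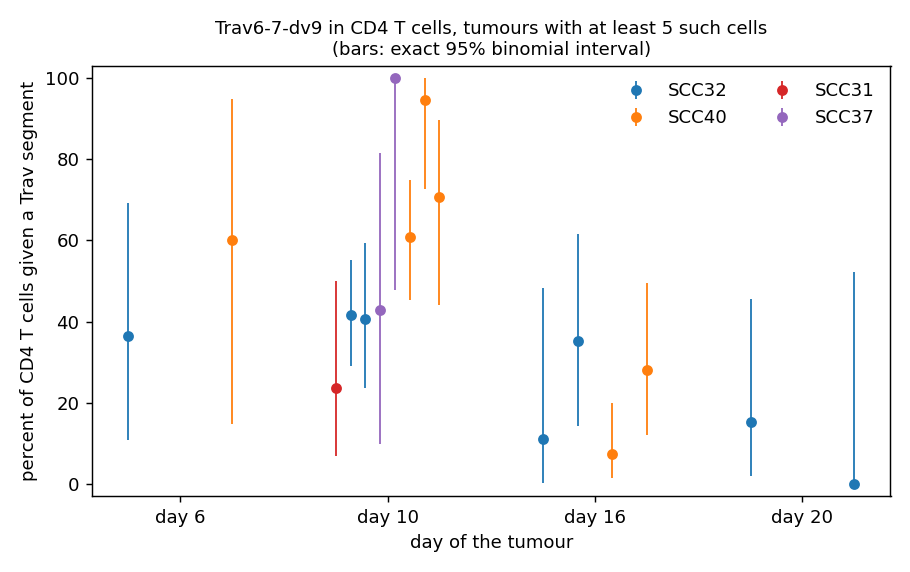
Percent of CD4 T cells given a Trav segment that carried Trav6-7-dv9 (y axis) by day (x axis), with exact 95% binomial intervals; points are tumours with at least 5 such cells, coloured by line. The 3 SCC40 tumours of day 10 lie between 60.9% and 94.4%, and the 2 of day 16 at 7.32% and 28%.

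Other segments led in SCC40 day 16 tumour 1. At day 16 Trbv5 held 25.3% of CD4 T cells with a Trbv segment (38 of 150), against 2.04% at day 10 (7 of 343), and 34 of the 38 cells came from SCC40 day 16 tumour 1. Trav9-1 was likewise given to 18 CD4 T cells in 2 tumours, 17 of them in 1 tumour. Both counts thus describe 1 tumour rather than a day.

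Both chains were read in 126 CD8 T cells (89 distinct pairs of Trav and Trbv segment) and in 250 CD4 T cells (99 distinct pairs). A pair is not a clonotype, since different junctions can carry it. Of 101 CD4 T cells with Trav6-7-dv9, Trbv26 was the partner in 33 (32.7%), Trbv13-2 in 31 (30.7%) and Trbv13-1 in 19 (18.8%), against 6.04%, 15.4% and 2.68% of 149 CD4 T cells with another Trav segment. Trbv19 was the partner in 7.92% against 19.5%, and Trbv5 in 0 of 101 against 16.1%. These shares pool cells of all tumours. Of the 24 Trbv5 cells with another Trav segment, 13 held Trav9-1 and came from SCC40 day 16 tumour 1. The 3 leading pairs of Trav6-7-dv9 were spread widely, over 12, 11 and 10 tumours. Trav13-1 was found mainly with Trbv19 (13 of 21 CD4 T cells), in 7 tumours. T cells with neither Cd4 nor Cd8 UMIs showed a like order of partners for Trav6-7-dv9, with Trbv26 in 16 and Trbv13-2 in 12 of 41 cells.

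Pairs held by at least 3 cells of a tumour were of 2 kinds. In CD8 T cells there were 4, and each was found in 1 tumour: Trav8n-2 with Trbv13-1 in 7 of 22 cells of SCC40 day 16 tumour 2, Trav13-2 with Trbv16 in 5 of 16 cells of SCC32 day 20 tumour 2, Trav12-1 with Trbv13-3 in 3 of 12 cells of SCC40 day 16 tumour 1, and Trav10 with Trbv13-3 in 3 of 22 cells of SCC40 day 16 tumour 2. In CD4 T cells there were 15 cases, of which 2 were of 1 tumour, Trav9-1 with Trbv5 (13 of 36 cells of SCC40 day 16 tumour 1) and Trav9d-1 with Trbv4 (3 of 23 cells of SCC40 day 16 tumour 2). The other CD4 pairs recurred in 3 to 12 tumours, and all but that of Trav13-1 with Trbv19 held Trav6-7-dv9.

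The chance that a cell of one tumour and a cell of another carried the same Trbv segment was also computed. In CD4 T cells its median was 16.8% for tumours of the same line and day (5 pairs of tumours), 11.6% for the same line on another day (15), 10.4% for another line on the same day (13) and 8.59% for another line and day (22). In CD8 T cells these medians were 10.4% (5), 5.73% (13), 5.73% (21) and 5.89% (52). The ranges overlapped (for CD4, 7.16% to 25.9% against 3.79% to 21.97% in the first and last case), tumours enter several pairs, and no test was made.

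No gene was called between cells that shared segments and the other cells of their tumours. CD8 T cells in pairs held by at least 3 cells were compared with those whose pair no other cell held (2 tumours, 487 genes). edgeR called 0 genes (0%), with 15 at an unadjusted p under 0.05. CD8 T cells of a tumour's leading Trbv segment against the other cells given a segment gave 0 of 534 genes (9 tumours; 31 unadjusted), and the same in CD4 T cells gave 0 of 873 (10 tumours; 65 unadjusted). Where segments shared the lead, the first by name was taken. CD4 T cells with Trav6-7-dv9 against those with another Trav segment gave 0 of 578 genes (6 tumours; 12 unadjusted). DESeq2 called 0 in each of the 4. The sums held few cells, so only large differences could have been called, and the lack of a call does not show that the cells were alike.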

How the data were processed

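UMI counts per gene and hashtag, not normalised, were deposited by the authors as 6 matrices, made with Cell Ranger 6.0.0 on mm10 per the submitters' processing notes. The hashtag table deposited by the authors gave each tumour's line, day and number. Cells were kept with at least 300 genes and at most 15% mitochondrial counts, and with 1 leading hashtag (at least 10 counts and 2 times the next). Doublets by hashtag or Scrublet (scanpy 1.11.5, expected rate 0.08) were removed, which left 55386 of 80184 barcodes. In the SCC31 library Scrublet's own threshold called 4 cells, and the median of the thresholds found elsewhere, used in its place, called 43.

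UMIs were summed per tumour and class and fitted with edgeR 4.0.16 (R 4.3.3), with TMM scaling and Benjamini-Hochberg adjustment over all genes tested at a threshold of 0.05. The sums held 24535 to 448778 UMIs per class and 52030 to 1098271 for all T cells. DESeq2 1.42.0 was an alternative. The fits were tested on simulated data. CPM and shares were computed in Python 3.11.15, with exact binomial intervals at 95% (scipy 1.17.1). Tumours are the replicates: by the mouse and cage numbers of the hashtag table, the 43 tumours had 43 different combinations of line, cage and mouse. Of the cage and mouse numbers, 13 recurred in another line, and the table does not say whether numbers run within a line. In all, 33 tumours shared a cage number with another tumour of their line, and cage was no term of the fits.

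Named segments were the 8 Trbv and 8 Trav segments with most cells, each tumour's leading Trbv segment, the leading CD8 pairs and the segments called in a fit, and other genes came from the lists below. The members and lists (receptor, exhaustion and activation, memory, cytotoxic, cycling, innate-like, and markers of other cell types) were chosen with earlier results of these data known. The comparison of Foxp3-positive with other CD4 T cells could not be fitted, since 1 tumour had 10 cells of each kind.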

Additional observations from a re-analysis of the deposited data

Results flagged for a closer look

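In groups of 4 to 10 tumours of a line, a tumour far above the others was found in 12 of 35 groups of segment values over all T cells, where chance gives about 1 in 20 for normally distributed values. Many of these values came from few UMIs, so the count is not read as an excess over chance. SCC37, with 6 tumours, gave 7 of them: Trbv5 at 19.0 CPM (next 6.99), Trbv13-1 at 27.97 (next 8.80), Trbv13-2 at 26.4 (next 9.75), Trbv13-3 at 97.5 (next 24.5), Trbv17 at 19.2 (next 4.87), Trbv19 at 26.4 (next 6.32) and Trbv26 at 27.97 (next 6.32). Apart from Trbv13-3 (20 UMIs), these SCC37 values came from 1 to 4 UMIs. In SCC35 they were Trbv5 at 29.0 CPM (next 11.4, 6 UMIs), Trbv13-2 at 273 (next 59.3, 16 UMIs) and Trbv26 at 52.8 (next 21.6, 8 UMIs). The outlying values with most UMIs were Trbv5 in SCC40 day 16 tumour 1, at 184 CPM (next 26.4, 117 UMIs), and Trbv13-1 in SCC32 day 20 tumour 2, at 194 CPM (next 78.9, 47 UMIs).

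Trbv20 differed between lines in its class difference, with an interaction of -7.16 on the log2 scale (edgeR adjusted p 0.0418).

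Cells outside the comparisons also held Trav UMIs. Among 6974 day 0 cells without a Cd3 UMI, Trav4-3 was found in 1.43%, Trav4-4-dv10 in 0.932% and Trav13-2 in 0.545%. In SCC37 at day 0, 48 of 696 cells had a Trav4-3 UMI (6.90%) and 34 had a Trav4-4-dv10 UMI (4.89%). Among tumour cells without Cd3, Lyz2 or Ptprc UMIs, Trav4-3 was found in 0.521% of 32078, and in T cells in 0.803% of 2990 (5.46 CPM). These shares are not scaled to depth, which was a median of 1970.5 UMIs in T cells and 7100 in all kept day 0 cells. They therefore do not compare the level of Trav4-3 between kinds of cells. Trav6-7-dv9 was found in 9.03% of T cells.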

How the results depend on the processing

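Of the values that answer a comparison, 145 under alternatives kept their direction and side of the threshold, and 17 moved. The number of called segments between CD8 and CD4 T cells went from 0 to 12 with no filter on low counts, and from 12 to 5 with DESeq2. The number over time went from 0 to 2 with no filter and to 1 without library SCC35. The number between lines, 7, went to 22 with no filter, 12 with Scrublet doublets kept, 12 without the mix library, 4 without library SCC32, 1 in CD8 T cells only and 4 in CD4 T cells only. In repeated pairs of CD8 T cells the count of genes went from 0 to 1 with no filter, 1 with a Cd3 sum of at least 3, and 3 with the Lyz2 condition dropped. For leading segments it went from 0 to 26 in CD8 and 21 in CD4 T cells with no filter. With at least 2 UMIs of 1 segment, the median share of T cells with Trbv was 20% in place of 47.8%, and with Trav 5.17% in place of 27.7%. Trbv5 turned to 0.44 without library SCC40. Leaving out each tumour gave 0 called segments over time and 10 to 14 between the classes, and 0 genes for leading segments and for Trav6-7-dv9.

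Same-numbered tumours of a line and day shared only a number (r 0.0926 in SCC32, -0.0451 and -0.0482 in SCC40). With a replicate block 0 segments were called over time, and without the tumour as block 15 were called between classes, with Trbv19 and Trbv29 lost. Dropping the Lyz2 condition, leaving out SCC31, the fits within a class, the interaction, the fits for leading segments and Trav6-7-dv9, and the unfiltered class fit as a result of its own were chosen after seeing the data. Depth limits single segments most, and segments with few UMIs cannot be compared.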

Other observations

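Foxp3, the transcription factor of regulatory T cells, was found in 79 of 1032 CD4 T cells. It was also found in 108 of 1100 T cells without Cd4 or Cd8 UMIs (9.82%), which the Foxp3 shares given here leave out. Trav6-7-dv9 was given to 12 of 38 Foxp3-positive CD4 T cells with a Trav segment (31.6%) and to 138 of 328 others (42.1%). Of 30 Foxp3-positive CD4 T cells with a Trbv segment, Trbv19 took 5, Trbv13-2 took 4, Trbv26 took 4 and Trbv15 took 3 (10%), while Trbv15 took 8 of 553 others (1.45%). The exact binomial intervals for Trbv15, 2.11% to 26.5% and 0.627% to 2.83%, overlapped, and Trbv15 was singled out after its values were seen. T cells without Cd4 or Cd8 UMIs had Trdc, the constant region of the delta chain, in 5.91% of cells, against 0.481% of CD8 and 0.194% of CD4 T cells, and they had a Trbv UMI in 36.7%.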
